A study of Homo sapiens with 8 samples.

Results

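The genes described here were the histone genes whose deposited symbol begins with HIST1H, HIST2H, HIST3H or HIST4H, 106 gene IDs carrying 89 distinct symbols, of 63677 genes counted in all. They were measured by RNA-seq in multiple myeloma cells, the malignant plasma cells of the bone marrow, after 24 h with 50 nM THZ1, a covalent inhibitor of the transcriptional kinase CDK7, or with its solvent DMSO. The study used 2 established cell lines, JJN3, which carries a translocation of MAF to the immunoglobulin heavy chain locus, and H929, which carries t(4;14). Each line and treatment had 2 libraries, 8 in all, and nothing in the descriptions said that the libraries of a group came from separate cultures, so the p-values measure the spread between these libraries, which may be technical. The family was put forward because its members moved in the JJN3 comparison, so the JJN3 counts of members are a description and not a test of the family. The same holds for the interaction and the comparisons between the lines, which use the same JJN3 libraries.

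Replication-dependent histone genes encode the linker histone H1 and the core histones H2A, H2B, H3 and H4 around which DNA is wound. They lie in clusters, have no introns, are transcribed mainly in S phase from the histone locus body, and give mRNAs that end in a conserved stem-loop in place of a poly(A) tail. The stem-loop is bound by SLBP, and U7 snRNP directs the cleavage just past it. Longer polyadenylated forms are also known, in which transcription runs on to a downstream poly(A) signal. Variant histones such as H3.3 and H2A.Z are encoded by ordinary genes and are made outside S phase as well.

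The libraries held 17476443 to 19194371 assigned reads each. Depth therefore differed little between groups, and 3 reads corresponded to 0.1563 to 0.1717 CPM, the read count scaled to the library total. All 10 plasma cell markers were detected, and their summed level was 4442 to 5015 CPM in JJN3. The light chains of the H929 libraries did not match each other. In those labelled H929 DMSO, 97.96% and 99.99% of the light chain V gene counts were lambda, against 0.2027% and 0.194% in those labelled H929 THZ1 and 0.2438% to 0.3692% in JJN3. The plasma cell markers of the H929 libraries also differed, at 3681 to 3928 CPM for DMSO and 12540 to 12560 CPM for THZ1, and the 6 myeloid markers, of which FCGR3A had no read, stood at 26.11 to 33.42 CPM against 0.3255 to 0.4922 CPM. THZ1 and this difference cannot be told apart in the H929 comparison, so its values are given as labelled, and JJN3, whose fit used none of these libraries, is described first. Markers of other cells were low. B cell markers (CD22 and CD79A had no read) summed to at most 4.507 CPM, erythroid markers (HBA2 had no read) to at most 1.52 CPM and stromal markers to at most 5.356 CPM. T cell markers went from 2.935 to 3.282 CPM with DMSO to 5.779 to 5.843 CPM with THZ1 in JJN3, and stood at 8.538 to 8.689 CPM and 37.7 to 38.23 CPM under the H929 labels. In the JJN3 test 4 of 10 plasma cell markers and the 1 B cell marker tested (MS4A1) fell and 2 of 3 T cell markers rose (with DESeq2 the B cell marker gave no call and 1 T cell marker rose), no myeloid marker could be tested, and the 1 erythroid and 2 stromal markers tested gave no call with edgeR, DESeq2 or an unadjusted p under 0.05. The part of these cells or genes in the histone values was not tested.

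The sequences that define the family are shown first, because they decide what a read can tell. Of the 106 IDs, 82 were placed on GRCh37, the assembly also called hg19, and 65 of these were protein-coding genes and 17 pseudogenes. A histone stem-loop (6 paired bases beginning with GG, a loop of 4 bases beginning with TT, and the pairing strand) was found within 100 bases past the stop codon in 60 of the 65, against 0.327% of all protein-coding genes. The 26-base windows below, in capitals the stem-loop, belong to a leading member of each histone type. They lie at chr1:149857733-149857758 (HIST2H2BE), chr6:27114140-27114165 (HIST1H2BK), chr6:26124892-26124917 (HIST1H2AC), chr6:26055967-26055992 (HIST1H1C), chr6:27778289-27778314 (HIST1H3H) and chr6:26285354-26285379 (HIST1H4H), past the stop codon, and are written 5′ to 3′ on the gene's strand, plus for HIST1H2AC and HIST1H3H and minus for the others. The HIST1H1C window ends beyond the annotated transcript, which stops 4 bases past the stem-loop.
HIST2H2BE: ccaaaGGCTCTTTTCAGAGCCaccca
HIST1H2BK: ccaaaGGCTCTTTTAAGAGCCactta
HIST1H2AC: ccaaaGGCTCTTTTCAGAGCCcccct
HIST1H1C: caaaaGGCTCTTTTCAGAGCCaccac
HIST1H3H: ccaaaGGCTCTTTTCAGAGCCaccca
HIST1H4H: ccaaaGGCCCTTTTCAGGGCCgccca
The 12 placed H4 stem-loops began with GGCCCT, and those of the H1, H2A, H2B and H3 genes with GGCTCT. HIST1H2AG, the fifth member by counts, had no match to the stem-loop pattern in the 100 bases of genome past its annotated stop codon.

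A second element separated H2A and H2B genes from the rest. The octamer ATTTGCAT, the recognition sequence of POU factors such as OCT1, was found on either strand in the 300 bases around the start (250 before to 50 after) of 12 of 16 H2A and 12 of 16 H2B genes, and in 0 of 6 H1, 0 of 14 H3 and 0 of 13 H4 genes, against 1.58% of all protein-coding promoters. The words TATAAA (forward strand; 7.12% of promoters) and CCAAT (either strand; 35.9%) were present in 8 and 16 of the 16 H2B genes. The 40-base windows below, octamer in capitals, lie at chr1:149858255-149858294, chr6:27100598-27100637, chr6:27114660-27114699 and chr6:26124254-26124293, all on the minus strand. They are examples from H2B genes described further on. HIST2H2BE had the largest log2 fold change of the tested H2B genes with THZ1 in JJN3, 4.68. With THZ1 in JJN3, HIST1H2BO, HIST1H2BF and HIST1H2BG, which are not shown, had log2 fold changes of 3.68, 3.61 and 3.43. Of the others shown, HIST1H2BC, HIST1H2BJ and HIST1H2BK had 3.56, 3.22 and 2.43.
HIST2H2BE: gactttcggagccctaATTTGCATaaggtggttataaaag
HIST1H2BJ: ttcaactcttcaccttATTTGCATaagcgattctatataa
HIST1H2BK: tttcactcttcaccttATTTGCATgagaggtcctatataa
HIST1H2BC: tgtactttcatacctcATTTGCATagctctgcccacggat
Each of the 4 shares its window with a neighbour that starts in the other direction, HIST2H2AC, HIST1H2AG, HIST1H2AH and HIST1H2AC, in which the same letters read as follows on the plus strand.
HIST2H2AC: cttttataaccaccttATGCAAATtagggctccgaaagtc
HIST1H2AG: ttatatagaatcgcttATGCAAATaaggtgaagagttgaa
HIST1H2AH: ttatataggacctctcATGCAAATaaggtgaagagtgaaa
HIST1H2AC: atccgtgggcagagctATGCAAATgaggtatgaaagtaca

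Since reads that mapped to more than 1 place had been dropped, near-identical genes were partly or wholly invisible. Uniqueness was counted over all overlapping windows of 50 bases, the length of the reads. By this count 61 of the placed members had a sequence that was at least 90% unique in the genome, 16 were under 50% unique and 5 had no unique position. Those 5 (HIST2H2AA3, HIST2H3A, HIST2H3C and 2 IDs with the symbol HIST1H4A) had 0 counts in every library, which says nothing of their expression. HIST1H2BK, the second member by counts, was 42.8% unique. Of the 61 members that were at least 90% unique, 11 also had 0 counts in every library; these included the testis genes HIST1H2AA and HIST1H2BA. In all, 66 of the 106 IDs had a count in some library and 40 had none. A count of 0 allows up to 3 reads, a limit that, like the intervals given below, covers counting error only.

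Histone genes took a larger share of the reads in THZ1-treated than in DMSO-treated JJN3 cells. The members summed to 146.2 and 148.8 CPM in the DMSO libraries and to 736.9 and 804.7 CPM in the THZ1 libraries, that is 147.5 ± 1.835 against 770.8 ± 47.97 (SD, n = 2), a ratio of 5.226. Every histone type was higher in both THZ1 libraries than in both DMSO libraries. Single genes weighed on the sums, and in H1 HIST1H1C gave 44.39 of the 44.86 CPM under DMSO. The ratio was 8.522 for H2B (5.262 without HIST2H2BE), 4.927 for H2A, 4.068 for H3, 2.607 for H4 and 1.927 for H1. H2B thus took a larger part of the family, 39.38% (95% Wilson interval 37.59 to 41.2) and 40.01% (38.23 to 41.83) of the member counts in the DMSO libraries and 64.67% (63.84 to 65.49) and 64.79% (64.02 to 65.55) in the THZ1 libraries. Since RNA was taken from whole cultures, a change in the number of cells of a kind and a change in RNA per cell cannot be told apart. CPM and the fold changes are relative to the other reads of a library. More histone RNA per cell and less of the other RNA therefore cannot be told apart either.

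**Figure D1:**
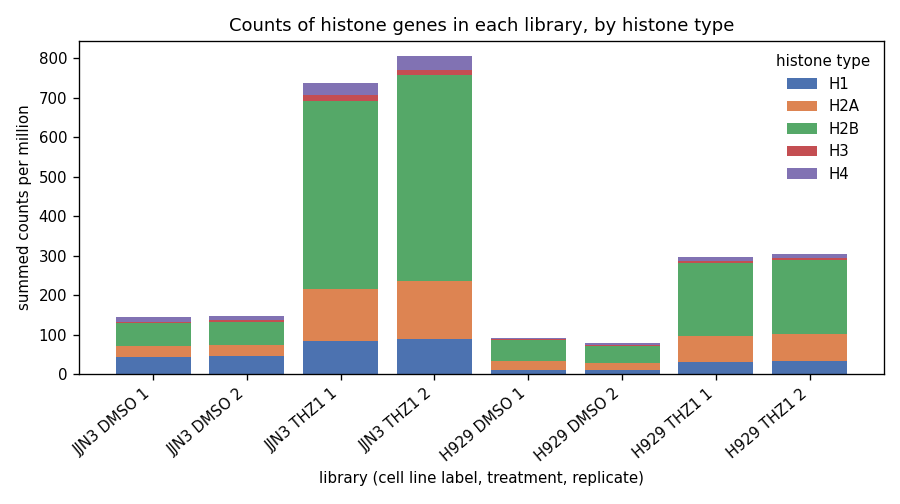
Summed CPM of the histone genes (y axis) in each of the 8 libraries (x axis), stacked by histone type. The JJN3 THZ1 libraries reach 736.9 and 804.7 CPM against 146.2 and 148.8 CPM in the JJN3 DMSO libraries, and the H2B segment is the tallest under THZ1.

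Gene by gene, 34 members had enough reads to be tested in JJN3, and 30 of them rose and 0 fell at an adjusted p under 0.05 and a log2 fold change beyond 0.5 (edgeR quasi-likelihood test, Benjamini-Hochberg adjustment over 13984 genes). At an unadjusted p under 0.05 the number that fell was also 0, and DESeq2 gave 30 and 0. Over all genes tested, 20.6% were called higher and 21.3% lower. The median log2 fold change of the tested members was 2.32, or 2.23 with the 2 genes that had no read under DMSO set at their lower bound, against -0.00 over all genes. The filter on low counts can be passed through the THZ1 libraries alone. Without any filter 61 members could be fitted, of which 37 were called higher and 0 lower, and among the 44 members with at least 10 reads over the 4 libraries, both THZ1 libraries exceeded both DMSO libraries in 41, against 34.5% of all such genes. The 3 exceptions were HIST1H2AJ, HIST1H3PS1 and HIST2H2AC. Scaling to total counts moved the median of all genes by -0.10 on the log2 scale, and the member calls stayed at 30 higher.

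HIST2H2BE, an H2B gene (ENSG00000184678, chr1:149856009-149858232, minus strand), changed most among the abundant members. It had 196 and 195 reads in the DMSO libraries and 4179 and 4623 in the THZ1 libraries. The groups stood far apart, at 10.2 and 244.6 CPM on average, a 23.95-fold difference with a log2 fold change of 4.68 ± 0.09 (SE; adjusted p = 4.09e-10). Its part of all histone reads went from 6.985% (6.1 to 7.988) and 6.869% (5.995 to 7.858) to 32.45% (31.65 to 33.26) and 31.08% (30.34 to 31.83). Without it the members still summed to 137.3 ± 1.829 CPM under DMSO and 526.2 ± 40.19 CPM under THZ1, a ratio of 3.833.

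Other H2B genes rose with it, 10 of the 11 tested. HIST1H2BK, the second member by counts, had 620 and 667 reads under DMSO and 2737 and 3363 under THZ1 (log2 fold change 2.43 ± 0.09, adjusted p = 9.9e-08). HIST1H2BJ had 54 and 41 against 337 and 440 reads (3.22 ± 0.18, adjusted p = 7.71e-07). Both genes were higher in both treated libraries with a wide gap. HIST1H2BC went from 29 and 24 to 251 and 301 reads (3.56 ± 0.19, adjusted p = 6.81e-07), and HIST1H2BG from 16 and 15 to 145 and 149 (3.43 ± 0.25, adjusted p = 1.58e-06). HIST1H2BO, with few reads, went from 6 and 1 to 46 and 35 (3.68 ± 0.54, adjusted p = 0.000157; 5.35 without DMSO replicate 1 and 2.91 without DMSO replicate 2). Among the smaller H2B rises was that of HIST1H2BD, with 97 and 100 against 244 and 306 reads (1.67 ± 0.15, adjusted p = 6.48e-06). HIST1H2BN had 34 and 38 against 156 and 177 reads (2.40 ± 0.20, adjusted p = 3.98e-06). HIST1H2BL, with 10 and 6 against 12 and 11 reads, did not pass the test (0.71 ± 0.48, adjusted p = 0.221). Part of the annotated span of HIST1H2BC lies on the opposite strand of HFE, which had 23 to 43 reads in the JJN3 libraries, and the strand setting of the counting was not given in the sources used here.

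**Figure D2:**
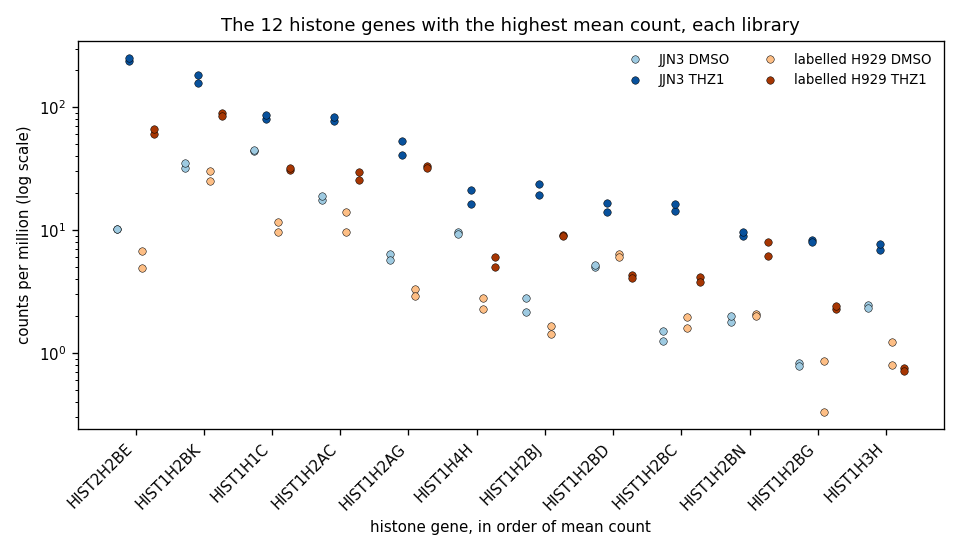
CPM on a log scale (y axis) of the 12 members with the highest mean count (x axis), 1 point per library, coloured by group. In JJN3 the THZ1 points of each gene lie above both DMSO points, and HIST2H2BE shows the widest gap, 10.2 against 244.6 CPM on average.

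Among the H2A genes 7 of 10 tested rose. HIST1H2AC had 338 and 361 reads under DMSO and 1356 and 1538 under THZ1 (log2 fold change 2.24 ± 0.09, adjusted p = 1.31e-07). HIST1H2AG had 123 and 109 against 717 and 976 reads (3.05 ± 0.14, adjusted p = 3.72e-07). These 2 genes held most H2A reads, and in neither did the groups overlap. HIST2H2AB had 0 reads in both DMSO libraries and 14 and 12 under THZ1, at least 4.626-fold higher when the DMSO libraries are set at 3 reads each (adjusted p = 0.000347); it overlaps BOLA1 on the opposite strand. HIST1H2AL, with 16 and 14 against 15 and 18 reads, HIST1H2AJ and HIST2H2AC did not pass the test.

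H2A and H2B genes often lie head to head, with their starts a short distance apart, and such partners can be compared over 1 shared promoter region. The annotation held 10 pairs, with 170 to 251 bases between the starts, and in 6 of them both partners were tested in JJN3. Both partners rose in 4 pairs, HIST1H2BC with HIST1H2AC, HIST1H2BJ with HIST1H2AG, HIST1H2AK with HIST1H2BN and HIST1H2AM with HIST1H2BO. In the other 2 pairs the partners parted. HIST2H2BE rose 23.95-fold while HIST2H2AC, whose start lies 236 bases away, had 19 and 13 reads under DMSO and 17 and 13 under THZ1 (log2 fold change 0.10 ± 0.41, adjusted p = 0.844), although 76.0% of its sequence was unique. HIST1H2AI rose from 3 and 6 to 36 and 33 reads (3.10 ± 0.45, adjusted p = 0.000137), and its partner HIST1H2BL did not pass. HIST1H2AI was 36.5% unique.

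**Figure D3:**
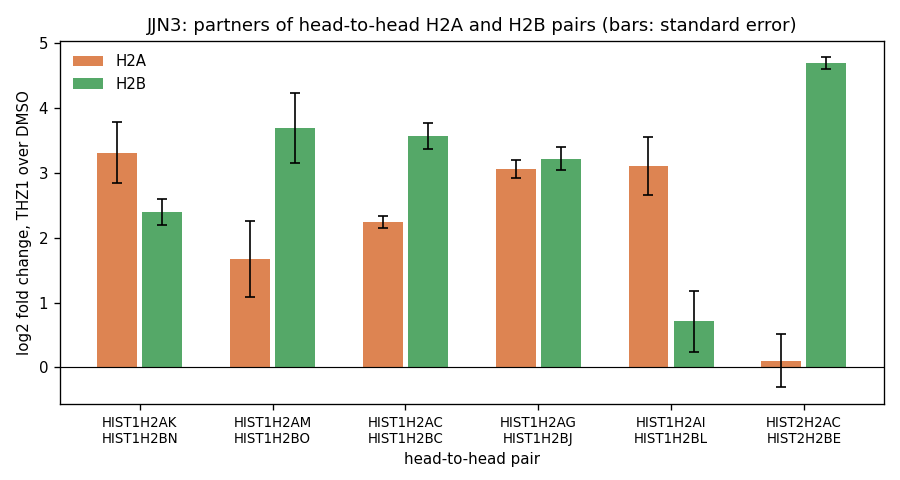
Log2 fold change of THZ1 over DMSO in JJN3 (y axis) for both partners of the 6 head-to-head pairs in which both were tested (x axis); error bars are standard errors. In the pair HIST2H2AC and HIST2H2BE the values are 0.10 and 4.68, and in HIST1H2AG and HIST1H2BJ they are 3.05 and 3.22.

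All 3 tested H1 genes, which encode linker histones, rose. HIST1H1C, which encodes H1.2, was the member with most reads under DMSO, 840 and 859, and had 1394 and 1586 under THZ1 (log2 fold change 1.00 ± 0.08, adjusted p = 3.01e-06). Its part of the histone reads went from 29.94% (28.27 to 31.66) and 30.26% (28.59 to 31.97) to 10.82% (10.3 to 11.37) and 10.66% (10.18 to 11.17), since it rose 1.865-fold beside a 5.226-fold rise of the sum. HIST1H1E, which encodes H1.4, went from 3 and 2 to 36 and 20 reads, a ratio of 11.92 (95% exact interval 4.816 to 38.14) with adjusted p = 0.000299. HIST1H1B, which encodes H1.5, had 6 and 5 against 14 and 16 reads (1.62 ± 0.46, adjusted p = 0.011).

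The tested H3 and H4 genes, 4 and 5, rose as well, at low levels. HIST1H3H had 47 and 44 reads under DMSO and 121 and 143 under THZ1 (log2 fold change 1.73 ± 0.21, adjusted p = 3.79e-05). HIST1H3B, whose product is canonical H3.1, went from 4 and 2 to 57 and 34 reads (4.07 ± 0.53, adjusted p = 7.13e-05). HIST1H4H, the H4 gene with most reads, had 186 and 177 against 286 and 395 (1.09 ± 0.15, adjusted p = 8.02e-05), and it overlaps a long noncoding RNA on the opposite strand. HIST1H4I had 21 and 34 against 72 and 89 reads (1.74 ± 0.28, adjusted p = 0.000317). HIST1H4C had 0 reads in both DMSO libraries and 36 and 10 under THZ1, at least 8.296-fold higher, with treated libraries that differed from each other (adjusted p = 0.00101). Each of these genes had both treated libraries above both controls.

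Outside the large HIST1 cluster the picture was set by few genes. The 32 IDs of the HIST2 cluster summed to 11.5 ± 0.2105 CPM under DMSO and 248.0 ± 7.521 CPM under THZ1 in JJN3, mostly from HIST2H2BE. HIST2H2BC, a pseudogene that is 20.3% unique and lies in a long noncoding RNA on its own strand, had 9 and 8 against 18 and 29 reads (log2 fold change 1.64 ± 0.42, adjusted p = 0.0057). That call was lost with DESeq2 and without DMSO replicate 2, with adjusted p up to 0.0937. HIST2H2BD, a pseudogene that is 5.0% unique and also lies in a long noncoding RNA, had 0 and 1 against 5 and 3 reads and was not tested. HIST3H2A and HIST3H2BA had 0 reads in all 4 JJN3 libraries. HIST4H4, alone on chromosome 12, had 22 and 6 against 42 and 50 reads (1.90 ± 0.44, adjusted p = 0.00325). Its control libraries differed more from each other than its treated ones, and the value was 3.09 without DMSO replicate 1 and 1.23 without DMSO replicate 2. In the HIST1 region itself, which spans chr6:25723625-27861669, 59 other gene IDs were counted. Of the 21 tested, 4 rose and 6 fell, against 20.6% and 21.3% of all genes, with a median log2 fold change of -0.08. The 4 that rose, named here after their values were seen, were HCG11, U91328.19, RP1-34B20.4 (2 and 0 against 41 and 38 reads) and RP1-86C11.7 (3 and 7 against 80 and 104 reads).

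The remaining members had few reads in JJN3, where 61 of the 106 had a read and 34 were tested. HIST1H2BF had 11 and 11 reads with DMSO and 120 and 118 with THZ1 (log2 fold change 3.61 ± 0.28, adjusted p = 2.23e-06). HIST1H4E had 10 and 13 against 68 and 67 (2.73 ± 0.31, adjusted p = 2.87e-05), and HIST1H2AK had 3 and 3 against 27 and 27, an increase seen in both libraries alike. HIST1H2AE, HIST1H3D, HIST1H2BH, HIST1H3F and HIST1H2AM rose as well, with log2 fold changes of 1.87, 1.81, 1.65, 2.61 and 1.67. HIST1H2AM shares exon sequence with HIST1H3J on the same strand, and HIST1H3D with a further protein-coding gene model. Of the members that were not tested, HIST1H3J had 0 reads with DMSO and 17 and 9 with THZ1, at least 4.656-fold higher, and HIST1H1D had 1 and 0 against 10 and 6, a ratio of 17.03 (exact interval 2.646 to 714.2). HIST1H1T, the testis linker histone, had 0 reads with DMSO and 7 and 5 with THZ1, at least 2.14-fold higher, and none under the H929 labels.

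**Figure D4:**
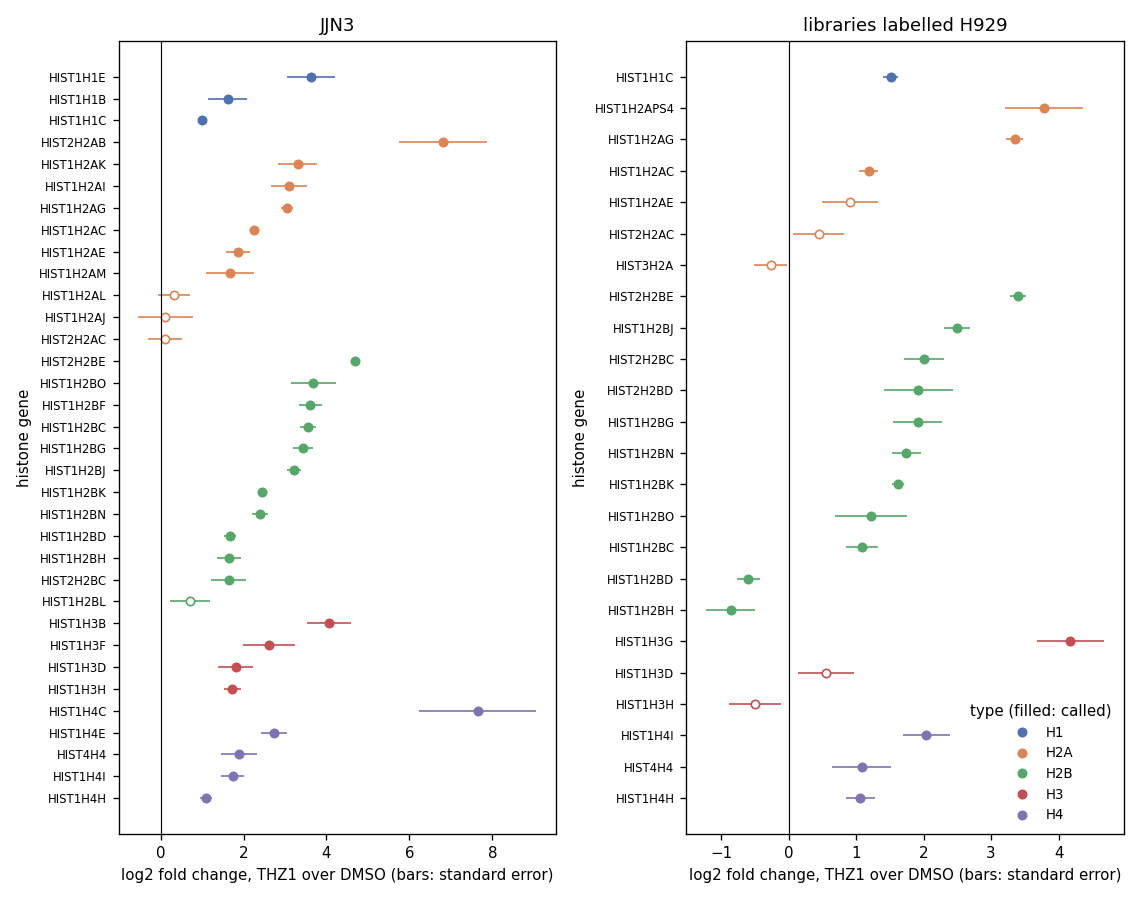
Log2 fold change of THZ1 over DMSO (x axis) of every tested histone gene (y axis), grouped by colour of histone type, in JJN3 (left, 34 genes) and under the H929 labels (right, 24 genes); bars are standard errors and filled points passed the test. All 34 JJN3 values are above 0, and the filled points of HIST1H2BD and HIST1H2BH are below 0 in the right panel. HIST1H4C and HIST2H2AB had no read with DMSO in JJN3, so their plotted sizes depend on the small count the fit adds.

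Compared per length of exon in GENCODE v44lift37, HIST1H2BK was the most abundant of the placed members in JJN3. The authors counted reads on another annotation, which may have drawn transcript ends differently. The levels and their order hold only for the lengths used here. Under THZ1 it stood at 342.0 CPM per kilobase of exon, followed by HIST1H1C at 113.2, HIST2H2BE at 110.0, HIST1H2AG at 95.2 and HIST1H2AC at 48.2. Under DMSO the levels were 67.9 for HIST1H2BK, 60.7 for HIST1H1C, 12.3 for HIST1H2AG, 10.9 for HIST1H2AC and 4.593 for HIST2H2BE. HIST2H2BE thus moved from below HIST1H2AC to a level beside HIST1H1C. Dividing by unique positions in place of exon length raised HIST1H2BK to 886.3 under THZ1 and left the order of the others almost as it was (121.4 for HIST1H1C, 122.2 for HIST2H2BE).

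Some members have an annotated transcript that runs on past the stem-loop. This held, by more than 100 bases, for 17 of the 60 genes with a stem-loop, among them HIST2H2BE (1729 bases), HIST1H2AC (1128), HIST1H2BC (2158) and HIST1H2BN (3699). HIST1H2BK and HIST1H1C end 5 and 4 bases past it. The 17 summed to 51.96 CPM under DMSO and 415.6 CPM under THZ1 in JJN3, a ratio of 7.997, and the 43 with a short end to 87.1 and 289.0 CPM, a ratio of 3.317. Without HIST2H2BE the first ratio was 4.095. HIST1H1C alone gave 44.39 CPM under DMSO and 82.79 CPM under THZ1 of the short-end sums, and it also lies in the group without the octamer. HIST1H1C rose 1.865-fold, less than either of its groups, so it lowered both of their ratios. Ratios of these groups without HIST1H1C were not computed. The order of the groups may therefore rest on single genes, and no order of long and short ends is drawn from these sums. The genes with the octamer had a ratio of 7.695, or 5.212 without HIST2H2BE, and those without the octamer 2.344. All genes with the octamer were H2A or H2B genes, so these groups also differed in histone type. Among the tested members the medians were nearer, 2.24 for long and 1.84 for short ends, and 2.34 with and 1.90 without the octamer. The counts per gene do not show where in a transcript a read fell, so long and short forms were not told apart.

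Under the H929 labels the sum was also higher with THZ1, 297.5 and 303.9 CPM against 93.07 and 78.73 CPM with DMSO, or 300.7 ± 4.533 against 85.9 ± 10.15 (SD, n = 2), a ratio of 3.501. Of 24 members tested, 17 were called higher and 2 lower, against 33.1% and 32.6% of all 14863 genes, and among the 41 members with at least 10 reads both THZ1 libraries lay above both DMSO libraries in 29, against 45.3% of all such genes. HIST2H2BE had 126 and 88 against 1110 and 1213 reads (log2 fold change 3.39 ± 0.12, adjusted p = 3.26e-13). HIST1H2AG had 62 and 52 against 612 and 589 reads (3.35 ± 0.13, adjusted p = 1.06e-12), and its head-to-head partner HIST1H2BJ 27 and 30 against 168 and 165 (2.495 ± 0.20, adjusted p = 7.57e-09). In none of these genes did the groups overlap. HIST2H2AC did not pass here either, with 11 and 21 against 25 and 20 reads (0.44 ± 0.38, adjusted p = 0.292). HIST1H2BK had 568 and 452 against 1665 and 1564 reads (1.62 ± 0.08, adjusted p = 4e-11), and HIST1H1C 220 and 173 against 571 and 587 (1.51 ± 0.11, adjusted p = 2.46e-09). HIST1H4I rose from 14 and 7 to 48 and 42 reads (2.04 ± 0.35, adjusted p = 5.55e-05).

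Some further rises rested on small counts. HIST1H3G had 1 and 3 reads against 41 and 38, a ratio of 19.79 (exact interval 7.432 to 74.43, adjusted p = 1.08e-06; fitted log2 fold change 4.18, with 3.59 and 5.13 without DMSO replicate 1 or 2), and in JJN3 it had 0 reads in both DMSO libraries and 3 in each THZ1 library. HIST1H2APS4, a pseudogene within a long noncoding RNA on its own strand, had 1 and 2 against 20 and 26 reads, a ratio of 15.37 (4.94 to 77.24, adjusted p = 1.88e-05), and no read in JJN3. Among the HIST2 pseudogenes, HIST2H2BC had 16 and 12 against 62 and 55 reads (2.01 ± 0.29, adjusted p = 1.12e-05) and HIST2H2BD 3 and 5 against 14 and 18 (1.92 ± 0.51, adjusted p = 0.00249, and 0.0789 with DESeq2). HIST4H4 had 6 and 9 against 17 and 16 reads (1.08 ± 0.43, adjusted p = 0.0312) and HIST1H2BO 6 and 3 against 12 and 10 (1.22 ± 0.53, adjusted p = 0.0446). Both of these calls were lost in most other settings and on leaving out libraries, with adjusted p up to 0.278 and 0.332. HIST3H2A, with 44 and 47 against 37 and 41 reads, did not pass the test, and HIST3H2BA had 0 reads in both DMSO libraries and 10 and 8 with THZ1, at least 3.0-fold higher. HIST2H2AB had 1 and 1 against 5 and 4 reads.

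The members called lower under the H929 labels were HIST1H2BD, with 119 and 109 against 80 and 75 reads (log2 fold change -0.60 ± 0.17, adjusted p = 0.0043), and HIST1H2BH, with 25 and 21 against 15 and 11 (-0.86 ± 0.36, adjusted p = 0.0383). The first was lost with DESeq2 (adjusted p = 0.0935), and the second with DESeq2 and on leaving out any of the 4 libraries (adjusted p up to 0.315), so that 1 gene was called lower in each of those 4 fits. Both genes had risen in JJN3. Of 20 members tested under both line labels, 14 were called higher in both, which is 46.67% of the 30 higher in JJN3 and 82.35% of the 17 higher under the H929 labels. Over all genes tested, 20.6% were called higher in JJN3 and 33.1% under the H929 labels. The share of all genes called higher in both was not computed, so this overlap is a description.

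The 2 line labels were compared directly by an interaction term over all 8 libraries. Among 37 members the log2 fold change was larger in JJN3 in 16 and smaller in 2, against 25.5% and 28.1% of all genes; without H929 DMSO replicate 2 they were 10 and 0 of 45, that is 22.2% of members higher against 23% of all genes, and with DESeq2 10 and 1 of 51, or 19.6% higher against 19.9%. The share of members called higher was thus near that of all genes in both of these fits. The difference was 1.28 ± 0.17 for HIST2H2BE (adjusted p = 5.4e-06), 2.47 ± 0.32 for HIST1H2BC (adjusted p = 5.72e-06), 2.26 ± 0.22 for HIST1H2BD (adjusted p = 2.32e-07), 1.05 ± 0.18 for HIST1H2AC (adjusted p = 0.000109) and 0.81 ± 0.13 for HIST1H2BK (adjusted p = 5.94e-05), on the log2 scale. For HIST1H1C it was -0.52 ± 0.13 (adjusted p = 0.00283), and that call ended without H929 DMSO replicate 2, where its size fell below 0.5. HIST1H2AG and HIST1H4H gave -0.30 ± 0.22 and 0.02 ± 0.28, which did not pass. Since the interaction rests on the libraries labelled H929 DMSO, the same limit holds for it.

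Between the lines, JJN3 stood above the H929 libraries in most members under THZ1. This reuses the JJN3 THZ1 values for which the family was put forward, so the counts are a description. In the fit to all 8 libraries 30 of 37 members were higher and 5 lower in JJN3, against 32.3% and 31.6% of all genes. A fit on the 4 THZ1 libraries alone gave 28 and 5 of 36. HIST1H1E, HIST1H2AJ, HIST1H1B, HIST1H3F, HIST1H2AL and HIST1H2BL, called higher, had at most 3 reads in each H929 THZ1 library. HIST2H2BE was 3.866-fold higher in JJN3 (log2 difference 2.07 ± 0.08, adjusted p = 2.78e-12), HIST1H1C 2.625-fold (1.51 ± 0.09, adjusted p = 1.32e-10) and HIST1H2BK 1.925-fold (1.06 ± 0.09, adjusted p = 1.17e-08). HIST3H2A was lower in JJN3, where it had no read, against 37 and 41, and so were HIST1H3G, HIST1H2APS4, HIST2H2BC and HIST2H2BD. In the DMSO libraries 12 members were higher and 4 lower in JJN3, against 30.7% and 30.8% of all genes. HIST1H1C was 4.164-fold higher there (2.03 ± 0.10, adjusted p = 2.57e-11) and HIST2H2BE 1.762-fold (0.79 ± 0.14, adjusted p = 9.74e-05). HIST1H2BK did not pass the fold limit (0.25 ± 0.10, adjusted p = 0.0328). Of the 4 called lower, HIST3H2A (0 and 0 against 44 and 47 reads, at least 15.79-fold, adjusted p = 2.97e-07) kept its call in all 16 fits, and the others rested on small counts. The number called lower was 1 without H929 DMSO replicate 2 or JJN3 DMSO replicate 1, 2 without JJN3 DMSO replicate 2 or either H929 THZ1 library, and the number called higher was 8 without H929 DMSO replicate 2.

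Histone variant genes lie outside the family, and the ends of their mRNAs were not measured. The 25 IDs of this list summed to 1162 ± 14.64 CPM under DMSO and 1082 ± 23.29 CPM under THZ1 in JJN3. Of the 10 tested 3 rose and 2 fell, against 20.6% and 21.3% of all genes, with a median log2 fold change of 0.16. H3F3A (0.81 ± 0.13, adjusted p = 0.000306), one of the genes of H3.3, H1FX (0.73 ± 0.08, adjusted p = 2.62e-05), a linker histone, and H2AFJ (0.60 ± 0.10, adjusted p = 0.000326) rose. H2AFZ, which encodes H2A.Z, had 3719 and 4171 against 1891 and 2442 reads (-0.68 ± 0.10, adjusted p = 0.000143), and the centromeric H3 gene CENPA 1125 and 1037 against 558 and 717 (-0.57 ± 0.10, adjusted p = 0.000555, with its size under 0.5 without THZ1 replicate 1). H2AFX, H2AFV, H2AFY, H3F3B and H1F0 did not pass both limits, with log2 fold changes of -0.18, 0.43, 0.06, -0.30 and 0.27. Under the H929 labels 1 of 10 rose and 2 fell, against 33.1% and 32.6% of all genes. H2AFX, the substrate of DNA damage phosphorylation, had 1781 and 1824 against 6870 and 6237 reads (1.82 ± 0.06, adjusted p = 1.64e-13), H1F0, the linker histone of resting cells, 3623 and 3675 against 1521 and 1428 (-1.35 ± 0.06, adjusted p = 2.79e-12), and H2AFJ fell by 0.77 (adjusted p = 8.96e-05).

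**Figure D5:**
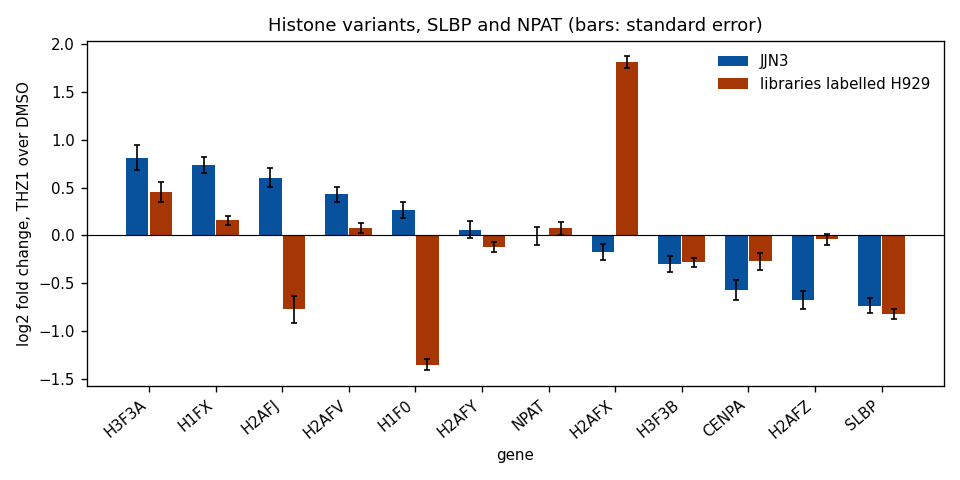
Log2 fold change of THZ1 over DMSO (y axis) for the histone variants that could be tested, SLBP and NPAT (x axis), in JJN3 and under the H929 labels; error bars are standard errors. SLBP lies below 0 in both, at -0.73 and -0.82, and H2AFX at -0.18 and 1.82.

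Among the factors that make histone mRNA and the genes of S phase, more fell than rose in JJN3. SLBP, the stem-loop binding protein, had 4394 and 4715 reads under DMSO and 2256 and 2537 under THZ1 (log2 fold change -0.73 ± 0.08, adjusted p = 2.05e-05), and under the H929 labels 5554 and 5306 against 3205 and 3138 (-0.82 ± 0.05, adjusted p = 3.38e-10). NPAT, the coactivator of histone genes, had log2 fold changes of -0.00 and 0.07 and did not pass. Of 23 tested histone mRNA factors 3 rose and 9 fell in JJN3, with a median of -0.43, against 20.6% and 21.3% of all genes, and 5 rose and 9 fell under the H929 labels, with a median of -0.19, against 33.1% and 32.6% of all genes. Those that fell in JJN3 included CPSF3 (-1.06), the endonuclease that cuts histone pre-mRNA, its partner CPSF2 (-0.83), the scaffold SYMPK (-1.32) and LSM10 of U7 snRNP (-0.997). LSM11, also of U7 snRNP, rose by 0.56, as did CPSF1 (0.83) and SRRT (0.78). Of 37 S phase genes 0 rose in JJN3 (edgeR; also 0 at an unadjusted p under 0.05, and 0 with DESeq2) and 19 fell, with a median of -0.62, among them RRM2 (-1.05), CDC6 (-1.13), MCM6 (-1.01) and E2F1 (-1.25), and under the H929 labels 7 rose and 14 fell. Of 20 tested histone chaperones 2 rose and 5 fell in JJN3, including CHAF1A (-0.95), ASF1B (-0.99) and NASP (-0.74), of which the number that fell was near the share of all genes, and 5 rose and 8 fell under the H929 labels.

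Other RNAs without a poly(A) tail, such as 7SK and the small nuclear RNAs, were low in all libraries. The 40 IDs of this list summed to 2.032 and 3.04 CPM in JJN3 with DMSO and to 7.782 and 5.572 CPM with THZ1. The 4 that could be tested rose, with 2 called by DESeq2, against 20.6% of all genes called higher by edgeR. The filter on low counts can be passed through the libraries of 1 treatment alone, so these few calls may be partly set by it. RN7SK had 1 and 2 against 23 and 11 reads (adjusted p = 0.00122). Under the H929 labels the sum went the other way, 6.61 and 8.482 against 3.201 and 2.352 CPM, while the histone sum was higher. There 0 of 3 rose (edgeR and DESeq2, also at an unadjusted p under 0.05) and 2 fell, against 33.1% and 32.6% of all genes. The part of RNA selection in the histone values was not tested.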

How the data were processed

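RNA-seq of 8 libraries was analysed, 2 for each of JJN3 and H929 with DMSO or THZ1. The authors aligned single-end reads of 50 bases to hg19 with STAR 2.5.2a, kept uniquely mapping reads and counted them per Ensembl gene with featureCounts; the deposited values were raw counts per gene, not normalized. The strand setting and the selection of RNA (poly(A) or other) were not given in the sources used here. The authors' DESeq2 (1.12.4) comparison tables hold fold changes and p-values and were not used, except for the column that pairs gene IDs with symbols.

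Counts were tested with edgeR 4.0.16 (TMM scaling, default filter on low counts, quasi-likelihood test) in R 4.3.3, with Benjamini-Hochberg adjustment over all tested genes; a call needed an adjusted p under 0.05 and a log2 fold change beyond 0.5. Each line was fitted on its 4 libraries, and the interaction and the comparisons between lines (JJN3 minus H929) on all 8. CPM used total counts. No sample column was left unused (0). Every library pair of a group differed by more than sampling noise.

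Members and gene lists were chosen with earlier results of these data known. Named members were the 12 with the highest mean count, the 6 largest rises and falls per line, those of the HIST2 to HIST4 clusters with at least 10 reads in a library, and, outside the family, histone variants, SLBP and NPAT; further genes are named as examples of their list or type. The lists were histone variants, histone mRNA factors, histone chaperones, S phase genes, RNAs without a poly(A) tail and markers of plasma, B, T, myeloid, erythroid and stromal cells. Gene positions and sequences came from GRCh37 with GENCODE v44lift37; 55 IDs were placed by ID and 27 by symbol, 13 were further copies of a placed symbol and 11 were not placed. The authors' annotation may have drawn transcript ends differently. Alternatives were DESeq2 1.42.0, 2 other scalings, other filters and fold limits, a replicate block, another set of libraries in the fit and each library left out.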

Additional observations from a re-analysis of the deposited data

Results flagged for a closer look

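In these genes the log2 fold change of THZ1 over DMSO differed between JJN3 and the libraries labelled H929, by the interaction term of the fit to all 8 libraries at an adjusted p under 0.05 (edgeR). Values are JJN3 minus H929. Of 37 members tested, 16 were called higher and 2 lower (43.2% and 5.41%), against 25.5% and 28.1% of all genes. With DESeq2 the share called higher was 19.6% of members and 19.9% of all genes. Of the 18 members called, those named by the rule had differences of 5.31 for HIST1H1E, 4.83 for HIST2H2AB, 2.5 for HIST1H2BH, 2.47 for HIST1H2BC, 2.45 for HIST1H2BO, 2.26 for HIST1H2BD, 2.21 for HIST1H3H, 1.51 for HIST1H2BG, 1.28 for HIST2H2BE, 1.05 for HIST1H2AC, 0.81 for HIST1H2BK and -0.52 for HIST1H1C. The other called members had 5.39 (HIST1H3J), 3.20 (HIST1H3F), 3.03 (HIST1H2BF), 2.95 (HIST1H2AI), 2.33 (HIST1H4E) and -4.04 (HIST1H2AL). HIST2H2AB and HIST1H3J had no read in the JJN3 DMSO libraries, and HIST1H2AL had none in those labelled H929 DMSO. The fitted sizes of these genes depend on the small count the fit adds. The call of HIST2H2AB held in 3 of 14 fits. The call of HIST1H2BO held in 8 of 15 fits, that of HIST1H2BG in 12 of 15 and those of HIST1H1E and HIST1H1C in 14 of 15, the exception being the fit without H929 DMSO replicate 2 (3.07 and -0.41). Without H929 DMSO replicate 1 the value was 6.15 for HIST1H1E and 0.66 for HIST1H2BG, and for HIST1H2BO it was 4.12 and 1.67 without JJN3 DMSO replicate 1 or 2. Among the variant histone genes the difference was 1.61 for H1F0, 1.37 for H2AFJ, 0.57 for H1FX, 0.34 for H2AFV, -0.64 for H2AFZ and -2.0 for H2AFX. THZ1 and the light chain difference between the libraries labelled H929 cannot be told apart in these values. With 2 libraries in each group, single libraries were not tested for standing apart.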

How the results depend on the processing

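The members called higher in JJN3 numbered 30 and ranged from 25 (at least 1 CPM in 2 libraries, 25 tested) to 37 (no filter on low counts, 61 tested), with 27 to 31 on leaving out 1 library, and 0 were called lower in any of these fits. Under the H929 labels 17 higher became 14 to 19, and 2 lower became 0 with a log2 limit of 1 and with DESeq2, and 1 with no filter and on leaving out any library (1 to 1). The interaction calls, 16 higher and 2 lower, became 10 and 1 of 51 with DESeq2 (19.6% higher, against 19.9% of all genes), 1 lower with a log2 limit of 1, with no filter and at 1 CPM, and 10 to 16 higher and 0 to 1 lower on leaving out 1 library. The 4 members lower in JJN3 than in H929 with DMSO became 2 with DESeq2, with no filter and at 1 CPM, 1 in a fit of those 4 libraries alone, and 1 to 4 on leaving out 1 library. The labels number replicates 1 and 2 in every group, but deviations from the group means did not correlate between libraries with the same number (0.01 in JJN3, -0.01 in H929). A fit with the replicate number as a block gave 30 higher in JJN3, 15 higher and 1 lower under the H929 labels, 15 and 1 for the interaction, 10 and 1 between lines with DMSO and 26 and 4 with THZ1. The summed histone level on the TMM library size was 145.2 CPM in JJN3 with DMSO and 290.6 CPM in H929 with THZ1. On total counts and without HIST2H2BE the sum was 137.3 CPM (JJN3, DMSO), 526.2 CPM (JJN3, THZ1) and 237.4 CPM (H929, THZ1). By list, RNAs without a poly(A) tail higher in JJN3 went from 4 to 2 with DESeq2, variants higher in H929 from 1 to 2 and chaperones higher in JJN3 from 2 to 1 with total counts. No called member or variant changed sign. Apart from fewer tested genes or libraries, the cause of these shifts was not tested. Members under about 10 reads in a group are limited by depth.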
